A study of Mus musculus with 12 samples.

Results

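The endothelial leukocyte adhesion ligands are the 8 surface proteins of the vessel wall encoded by Selp, Sele, Madcam1, Icam1, Icam2, Vcam1, Mcam and Alcam, taken by gene symbol from the deposited read counts. All 8 of 8 symbols were found among 21983 genes, and their names are intact in all 12 libraries. The libraries are RNA-seq of whole brain from wild type C57BL/6 mice labelled as 6 weeks old, kept under specific pathogen free conditions. Of the 3 groups with 4 libraries each, the first is normal mice, called control here. The second is mice with experimental cerebral malaria (ECM), the mouse model of the brain disease caused by malaria parasites, and the third is ECM mice that were given artesunate, an artemisinin-type antimalarial drug, for 4 days. The sources used here do not give the parasite, the drug dose, the day of sampling or the sex of the mice. Whether the libraries of a group come from different mice is not in the labels, and the p-values therefore measure the spread between these libraries, which may be technical.

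Leukocytes leave the blood in steps. Selectins on the endothelium, P-selectin and E-selectin, catch flowing leukocytes by their sugar-bearing ligands and let them roll. Integrins on the leukocyte then hold fast to members of the immunoglobulin superfamily on the vessel wall, ICAM-1 and ICAM-2 for the integrin LFA-1 and VCAM-1 for VLA-4, and inflammatory cytokines such as TNF and interferon-gamma are known inducers of several of these genes. In cerebral malaria the same ligands are of interest because infected red cells, leukocytes and platelets gather in brain vessels. Bulk brain RNA does not show which cell carries a transcript. P-selectin is also a platelet protein, VCAM-1 and ICAM-1 can be made by glia, leukocytes and choroid plexus cells, MCAM is carried by mural cells too, and ALCAM by neurons.

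Promoter sequences are shown for 4 of the members whose transcripts differed between groups, because the deposited data measure what these genes produced and the windows hold the start of each gene. Icam2 and Vcam1 also differed, but the promoter set used held no window for them. Madcam1 is shown although it had too few reads for the test across all genes. The sequences are RefSeq windows on GRCm38.p6 from 250 bases before to 50 after the gene start, printed from 5′ to 3′ on the strand of the gene, which is the plus strand in all 4. Capitals mark matches to the motifs searched on both strands: an NF-kB consensus of 10 letters, TTCNNNGAA (an interferon-gamma-activated site), the core of an interferon-stimulated response element and TATAAA. The NF-kB consensus was GGGRNNYYCC, with R for A or G, Y for C or T and N for any base. Variants that depart from these letters were not searched for, so a window without a match can still hold them. The windows are chr1:164115014-164115313 for Selp, chr1:164047984-164048283 for Sele, chr10:79664309-79664608 for Madcam1 and chr9:21015690-21015989 for Icam1.
Selp: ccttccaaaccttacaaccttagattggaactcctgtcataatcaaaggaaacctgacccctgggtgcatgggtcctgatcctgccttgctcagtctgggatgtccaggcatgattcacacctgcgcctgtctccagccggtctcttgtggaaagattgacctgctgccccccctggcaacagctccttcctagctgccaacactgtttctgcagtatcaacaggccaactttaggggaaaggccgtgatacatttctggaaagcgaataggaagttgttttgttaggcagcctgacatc
Sele: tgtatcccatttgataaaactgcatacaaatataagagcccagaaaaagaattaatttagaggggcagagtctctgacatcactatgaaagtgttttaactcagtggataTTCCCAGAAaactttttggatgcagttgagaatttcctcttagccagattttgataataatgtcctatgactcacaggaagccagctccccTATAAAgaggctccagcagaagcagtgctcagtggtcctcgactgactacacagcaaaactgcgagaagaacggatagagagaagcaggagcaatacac
Madcam1: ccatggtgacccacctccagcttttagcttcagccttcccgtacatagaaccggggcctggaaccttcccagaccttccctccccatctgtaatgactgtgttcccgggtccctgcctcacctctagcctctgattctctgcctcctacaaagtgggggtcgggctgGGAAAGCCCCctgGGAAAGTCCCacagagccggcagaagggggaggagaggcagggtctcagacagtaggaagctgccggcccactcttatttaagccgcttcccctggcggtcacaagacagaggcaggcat
Icam1: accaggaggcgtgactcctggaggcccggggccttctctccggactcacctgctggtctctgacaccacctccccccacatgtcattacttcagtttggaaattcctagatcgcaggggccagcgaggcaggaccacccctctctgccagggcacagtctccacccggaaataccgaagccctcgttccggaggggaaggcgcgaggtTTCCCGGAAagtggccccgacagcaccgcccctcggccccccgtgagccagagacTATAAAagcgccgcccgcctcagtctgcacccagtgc
Positions are counted from the RefSeq gene start, whose first base is 1. Icam1 held TTCCCGGAA at -42 to -34 and TATAAA at 14 to 19, and Sele held TTCCCAGAA at -140 to -132 and TATAAA at -49 to -44. For Icam1 the GENCODE start lies 45 bases after the RefSeq start, and counted from it the same matches lie at -87 to -79 and -32 to -27. For the other 3 both starts are the same base. Madcam1 had 2 matches to the NF-kB consensus, both on the minus strand and not overlapping (GGGGCTTTCC at -83 to -74 and GGGACTTTCC at -70 to -61). The Selp window, and those of Mcam and Alcam, held none of the 4 motifs, and the interferon-stimulated response element core was in none of the 6 windows found for members. Among 32851 RefSeq promoters of the same length the NF-kB consensus was present in 8.46%, TTCNNNGAA in 8.3%, the interferon-stimulated response element core in 3.44% and TATAAA in 13.6%. A match describes letters in this window and is not a binding site shown by these data.

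Libraries held 13342177 to 18886822 reads assigned to genes. Levels are CPM, read counts scaled to the library size after TMM, given for each library in the order 1 to 4. Mitochondrial transcripts took 10.7% of the reads in control 4, 15.2% in ECM 2 and 13.2% in ECM 3, against 4.74% to 7.89% in the other 9. Control 4 and ECM 3 also stood apart from their groups on the second principal component. Counts of called genes that differed without these 3 libraries are given below with both values.

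In ECM against control, which asks how the ligands differ in the diseased brain, 5 of the 7 members that could be tested rose and 0 fell, where 10.2% of all genes were called, 7.31% higher and 2.88% lower. They were both selectins, Icam1, Icam2 and Vcam1. Calls were made in the edgeR quasi-likelihood fit over 14603 genes, with 0.05 as the limit of the adjusted p. The median log2 fold change of the 7 members was 1.68, against 0.00 for all genes tested. Mcam and Alcam did not pass. Madcam1 had too few reads to enter the fit. In 4 of 8 members every ECM library lay above every control library (Selp, Sele, Madcam1 and Icam1), a pattern found in 9.19% of genes with 12 usable libraries, and 0 members showed the opposite, found in 5.29%. In bulk tissue fewer cells of a type and less RNA per cell cannot be told apart, and the same holds for more.

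**Figure D1:**
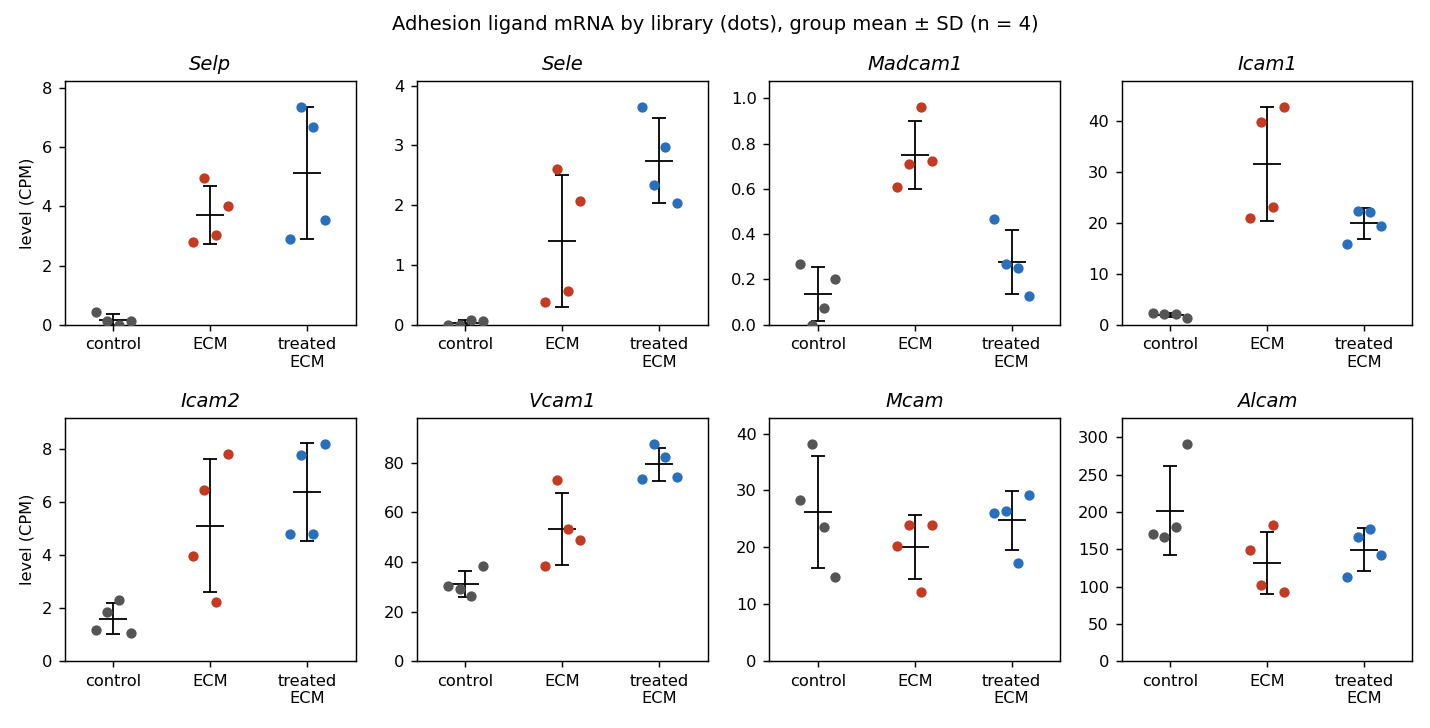
Level of each adhesion ligand gene in CPM (linear vertical axis, own scale per gene) in the 4 control, 4 ECM and 4 artesunate-treated ECM libraries, with dots for libraries and bars for the group mean ± SD. Selp, Sele, Madcam1 and Icam1 were higher in every ECM library than in every control library, while Mcam and Alcam overlapped between all groups.

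The selectins went from near absence to a low but measurable level. P-selectin (Selp, build mm10, chromosome 1, 164115264 to 164150026, plus strand), which is stored in granules and brought to the surface within minutes, was at 0.427, 0.124, 0 and 0.135 CPM in control libraries, or 12 reads in all. The ECM libraries were at 2.81, 4.97, 3.05 and 4.02 CPM and the treated ones at 2.91, 7.36, 6.70 and 3.55 CPM. All libraries of both disease groups lay above all controls, and treated libraries 2 and 3 were the highest. Selp rose 19.4-fold in ECM (log2 fold change 4.28 ± 0.58 SE, edgeR adjusted p = 0.00021). Control 1 held 8 of the 12 control reads, and without it the log2 fold change was 5.24 in ECM and 5.71 in treated ECM against control. E-selectin (Sele, chromosome 1, 164048234 to 164057677, plus strand), which is made anew by activated endothelium, had 0, 0, 1 and 1 reads in the controls. Its level in ECM was 0.380, 2.60, 0.561 and 2.06 CPM, and in treated ECM 3.64, 2.34, 2.97 and 2.03 CPM. The ECM libraries fell into a low pair, 1 and 3, and a high pair, 2 and 4, and the treated libraries overlapped only the high pair. Sele rose in ECM (adjusted p = 0.0013), where its reads per library size were 46.8 times those of the controls, with a 95% interval of 12.6 to 392 that covers counting error only.

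MAdCAM-1, the mucosal addressin that binds the integrin alpha4beta7, had the fewest reads of the 8 over all 12 libraries. Madcam1 (chromosome 10, 79664559 to 79668537, plus strand) had 9 reads over the controls, 43 over ECM and 19 over treated ECM. Its levels were 0.267, 0, 0.0726 and 0.203 CPM in control, 0.608, 0.710, 0.962 and 0.722 CPM in ECM, and 0.468, 0.268, 0.253 and 0.127 CPM in treated ECM. ECM libraries lay above those of both other groups, which overlapped each other. In an exact two-sided permutation test over libraries the ECM levels differed from control and from treated ECM with p = 0.0286 each, the smallest p that 4 against 4 libraries can give, and treated ECM and control gave p = 0.171. These tests of Madcam1 were chosen after its values were seen. With no filter on low counts its log2 fold change was 2.34 ± 0.64 in ECM against control (edgeR adjusted p = 0.0361) and -1.36 ± 0.59 in treated ECM against ECM (adjusted p = 0.184).

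Icam1 had the tightest estimate among the large increases. ICAM-1 (Icam1, chromosome 9, 21015985 to 21028817, plus strand), the main ligand of the integrins LFA-1 and Mac-1, stood at 2.24, 2.04, 2.03 and 1.29 CPM in control. It stood at 21.0, 39.8, 23.1 and 42.8 CPM in ECM and at 15.9, 22.4, 22.2 and 19.4 CPM in treated ECM. Both disease groups lay far above control. ECM libraries 2, 3 and 4 were above every treated library, ECM 3 narrowly, while ECM 1 lay among them. Icam1 rose 16.6-fold in ECM (log2 fold change 4.05 ± 0.29, adjusted p = 1.15e-06), and only 180 of the 14603 genes had a larger log2 fold change.

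Its relative ICAM-2 is carried by resting endothelium and binds LFA-1 as well. Icam2 (chromosome 11, 106377656 to 106388075, minus strand) was at 1.17, 1.85, 2.32 and 1.08 CPM in control, at 3.95, 6.47, 2.24 and 7.79 CPM in ECM and at 4.78, 7.76, 4.80 and 8.19 CPM in treated ECM. ECM 3 lay within the control range and the other ECM libraries above it, while all treated libraries exceeded all controls. The rise in ECM was 3.20-fold (log2 fold change 1.68 ± 0.40, adjusted p = 0.015). The call ended when control 1 (adjusted p = 0.0547) or ECM 4 (0.0507) was left out, or when the 2 groups were fitted alone (0.0521).

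VCAM-1, the endothelial ligand of the integrin VLA-4, was already abundant in control brain. Vcam1 (chromosome 3, 116109949 to 116129688, minus strand) was at 30.6, 29.2, 26.2 and 38.5 CPM in control, at 38.3, 73.2, 53.2 and 48.8 CPM in ECM and at 73.6, 87.6, 82.2 and 74.5 CPM in treated ECM. ECM 1 lay just below control 4, and all 4 treated libraries lay above all ECM and control libraries. Vcam1 rose 1.71-fold in ECM (log2 fold change 0.78 ± 0.19, adjusted p = 0.0193). This call ended without control 1, 2 or 3 (adjusted p = 0.0608, 0.0626 and 0.0792) and in the fit of the 2 groups alone (0.0948).

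Mcam and Alcam did not pass the test in any comparison. MCAM (Mcam, chromosome 9, 44134469 to 44142727, plus strand), a junctional adhesion molecule of endothelial and mural cells, was at 28.4, 38.2, 23.5 and 14.8 CPM in control, at 20.2, 24.0, 12.1 and 23.9 CPM in ECM and at 26.1, 26.4, 17.2 and 29.3 CPM in treated ECM. ALCAM (Alcam, chromosome 16, 52248996 to 52454074, minus strand), the ligand of the T cell receptor CD6, was at 170.3, 167, 179 and 291 CPM in control, at 149, 103, 182 and 92.8 CPM in ECM and at 113, 166, 178 and 142 CPM in treated ECM. All groups overlapped for both genes. Control 4 and ECM 3, the libraries that stood apart on the second principal component, had the lowest Mcam and the highest Alcam of their groups. The part of this difference between libraries in the results for Mcam and Alcam was not tested. In ECM against control the log2 fold change was -0.39 ± 0.29 for Mcam (adjusted p = 0.49) and -0.62 ± 0.25 for Alcam (adjusted p = 0.156). Without control 4, ECM 2 and ECM 3 these values were -0.46 (adjusted p = 0.222) and -0.53 (adjusted p = 0.108). With 1 library left out they ranged from -0.58 to -0.16 for Mcam and from -0.82 to -0.39 for Alcam.

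**Figure D2:**
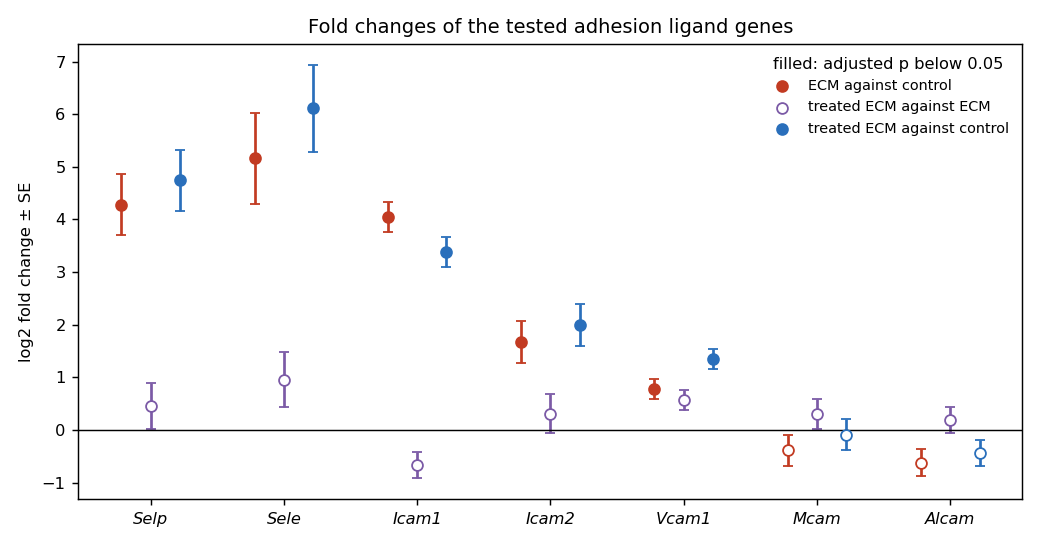
Log2 fold change ± SE from the edgeR fit for the 7 tested adhesion ligand genes in 3 comparisons, with filled circles for an adjusted p below 0.05. Both selectins, Icam1, Icam2 and Vcam1 were called in each disease group against control, and no member was called between the disease groups.

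Treated ECM against ECM asks what differed between ECM mice given artesunate for 4 days and ECM mice without it. The day of sampling is not given, so an effect of the drug cannot be told apart from a difference in that day. Of the 7 tested members 0 were called, where 8.61% of all genes were called, 3.02% higher and 5.59% lower. DESeq2 also called 0, and 2 members, Icam1 and Vcam1, had an unadjusted p below 0.05, as did 26% of all genes. Their values pointed in opposite directions. Icam1 had a log2 fold change of -0.67 ± 0.25 (edgeR adjusted p = 0.111) and Vcam1 of 0.57 ± 0.19 (adjusted p = 0.0786). The Vcam1 difference passed without control 4 (adjusted p = 0.0467), without ECM 2 (0.0169), and without control 4, ECM 2 and ECM 3 together (log2 fold change 0.87, adjusted p = 0.00249). The Vcam1 level was 79.5 ± 6.67 CPM (SD, n = 4) in treated ECM and 53.4 ± 14.6 CPM in ECM.

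For the remaining members the interval of the difference between treated ECM and ECM was wide. Its 95% bounds from the SE were -0.39 and 1.31 on the log2 scale for Selp, -0.07 and 1.98 for Sele, -0.42 and 1.04 for Icam2, -0.27 and 0.87 for Mcam and -0.30 and 0.68 for Alcam. Sele was at 2.75 ± 0.713 CPM in treated ECM and at 1.40 ± 1.10 CPM in ECM. Of all 8 members, Vcam1 alone was higher in every treated library than in every ECM library, as were 10.4% of genes, and Madcam1 alone was lower in every one, as were 11.3% of genes.

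Treated ECM against control asks what still differed from healthy brain. The same control libraries enter this comparison and the first, so agreement between them is not independent. Again 5 of 7 tested members were higher and 0 lower, where 2.03% of all genes were called, 1.97% higher and 0.0548% lower. The median log2 fold change was 1.99 for the 7 members and 0.01 for all genes tested. Selp was 26.7-fold higher (log2 fold change 4.74 ± 0.57, edgeR adjusted p = 0.000306), and only 52 genes had a larger log2 fold change. Sele was higher with 88.8 times the reads per library size (interval 24.2 to 739, adjusted p = 0.000818), and Icam1 10.4-fold higher (3.38 ± 0.28, adjusted p = 1.32e-05). Icam2 was 3.97-fold higher (1.99 ± 0.40, adjusted p = 0.0151) and Vcam1 2.55-fold higher (1.35 ± 0.19, adjusted p = 0.00136). The libraries of the 2 groups did not overlap for any of these 5 genes, a pattern seen in 10.8% of genes, while no member had all treated libraries below all controls, seen in 8.1%. The Icam2 call ended without control 1 (adjusted p = 0.0678), treated 2 (0.0536) or treated 4 (0.0578). Mcam (log2 fold change -0.09 ± 0.29, adjusted p = 0.902) and Alcam (-0.43 ± 0.25, adjusted p = 0.498) did not pass.

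Per exon length the order of the ligands differed between groups. Levels of different genes were compared as RPKM, the CPM divided by the kilobases of all annotated exons of the gene. Control brain was led by Alcam at 28.4 RPKM, then Mcam at 7.83, Vcam1 at 3.51, Icam2 at 0.845, Icam1 at 0.436, Madcam1 at 0.0944, Selp at 0.0388 and Sele at 0.012 RPKM. Each of these neighbours down to Madcam1 was separated from the next without overlap between libraries, and the last 3 overlapped. In ECM Alcam still led at 18.5 RPKM, and Icam1 came next at 7.27, followed by Vcam1 (6.02), Mcam (5.99) and Icam2 (2.69), each overlapping the next. Below them lay Selp at 0.841, Madcam1 at 0.523 and Sele at 0.481 RPKM, which also overlapped. In treated ECM the order was Alcam (21.0), Vcam1 (8.96), Mcam (7.38), Icam1 (4.58), Icam2 (3.35), Selp (1.16), Sele (0.943) and Madcam1 (0.194 RPKM). There Vcam1, Mcam, Icam1 and Icam2 each overlapped the next, as did Selp and Sele. With the longest transcript as the length, Vcam1 and Icam1 changed places in ECM and no other rank changed.

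**Figure D3:**
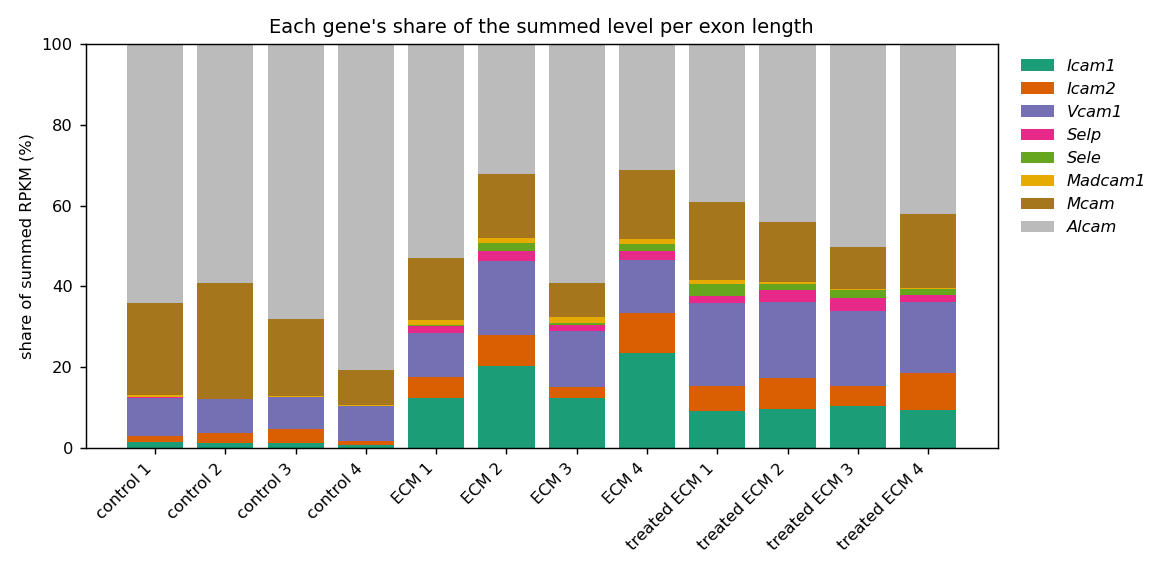
Share of each gene (percent, stacked to 100) in the summed RPKM of the 8 adhesion ligand genes, for each of the 12 libraries. Alcam filled most of each control bar, and Icam1 a larger part of each ECM and treated bar.

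As a share of the summed RPKM of all 8 genes, Alcam made up 69.0% in control, 43.7% in ECM and 44.2% in treated ECM. The Icam1 share was 1.06%, 17.2% and 9.62% in the same order, and that of Vcam1 8.53%, 14.2% and 18.8%. Both selectins together with Madcam1 stayed a small part, with 1.99%, 1.14% and 1.24% for Selp, Sele and Madcam1 in ECM. The sum itself ranged from 36.9 to 50.7 RPKM over control libraries, from 39.3 to 44.9 over ECM libraries and from 40.3 to 53.0 over treated libraries, so the groups overlapped.

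Whether ligands changed by different amounts was tested on differences within each library, in log2(CPM + 0.5). Of 12 differences 8 passed an exact two-sided permutation test after Benjamini-Hochberg adjustment, each at p = 0.0286 (adjusted 0.0429). The level of Icam1 minus that of Vcam1 was -3.72 ± 0.49 in control, -0.77 ± 0.42 in ECM and -1.97 ± 0.14 in treated ECM (SD, n = 4), and the libraries of the 3 groups did not overlap. Icam1 thus gained 2.95 on Vcam1 in ECM against control, and the difference was 1.20 smaller in treated ECM than in ECM. Icam1 minus Icam2 was 0.21 ± 0.36 in control, 2.57 ± 0.37 in ECM and 1.60 ± 0.38 in treated ECM, again without overlap. Vcam1 minus Alcam was 1.37 higher in ECM and 1.76 higher in treated ECM than in control, while treated ECM and ECM differed by 0.39 (exact permutation p = 0.4). For Selp minus Sele, the 2 selectins, none of the comparisons passed (exact permutation p = 0.0857, 0.229 and 0.371). The 0.5 CPM added before the logarithm understates changes of genes as low as these.

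**Figure D4:**
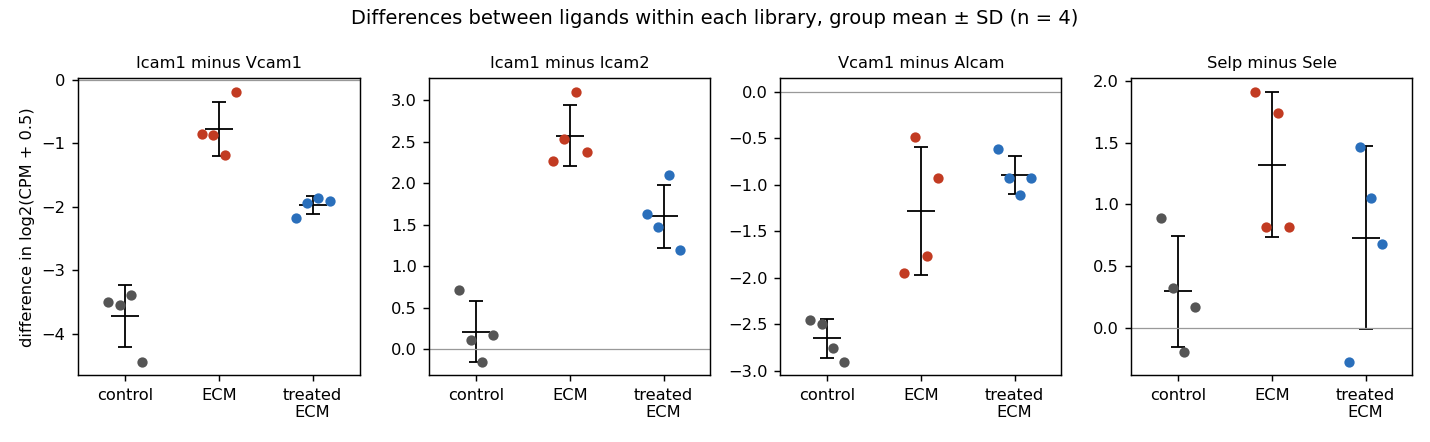
Difference between pairs of adhesion ligand genes within each library, in log2(CPM + 0.5), with dots for libraries and bars for the group mean ± SD. Icam1 minus Vcam1 separated into 3 groups without overlap, lowest in control and highest in ECM, and Selp minus Sele overlapped throughout.

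Endothelial genes moved as well. Of 12 endothelial identity genes, 5 rose in ECM (Cldn5, Pecam1, Cdh5, Erg and Emcn) and Tek, a receptor of quiescent vessels, fell, and in treated ECM against ECM 4 fell and 0 rose. Without control 4, ECM 2 and ECM 3 the counts were 7 higher and 2 lower in ECM, and 1 higher and 6 lower in treated ECM against ECM. Their summed level was 211 to 251 CPM in control, 387 to 420 in ECM and 230 to 285 in treated ECM, with none of the 12 at 0. Between treated ECM and control the smallest edgeR adjusted p among the 12 was 0.37, that of Cdh5. The part of the endothelial genes in the results for the ligands was examined by subtracting their mean log2(CPM + 0.5) within each library. Of 24 such comparisons 0 passed after adjustment, since the smallest p of 0.0286, reached in 12 of them, became 0.0571. Relative to these genes Icam1 differed by 3.07 in ECM against control and by 2.88 in treated ECM against control, with no overlap. Selp differed by 2.03 and 2.79, or by 3.38 and 4.17 with 0.1 in place of 0.5 CPM added. Vcam1 differed by 0.12 in ECM against control (exact permutation p = 0.629). It differed by 1.13 in treated ECM against control and by 1.00 in treated ECM against ECM, both without overlap. Sele and Mcam were also higher in treated ECM than in ECM without overlap, by 1.35 and 0.72. The subtracted mean was lower in treated ECM (3.96 to 4.25) than in ECM (4.43 to 4.65). This fall is contained in the values of Sele, Mcam and Vcam1 for treated ECM against ECM. Before the subtraction the libraries of these groups overlapped for Sele and Mcam. Sele and Icam2 were higher in treated ECM than in control without overlap, by 2.35 and 1.49. On the same scale Mcam differed by -0.97 and Alcam by -1.25 in ECM against control, both without overlap. The subtracted mean itself lay at 3.75 to 4.04 in control libraries and at 4.43 to 4.65 in ECM libraries, and its rise is contained in both values. Before the subtraction the groups overlapped for Mcam and Alcam. With a pseudocount of 0.1 CPM, 14 of the 24 passed, as the adjusted value of the smallest p was then 0.049.

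**Figure D5:**
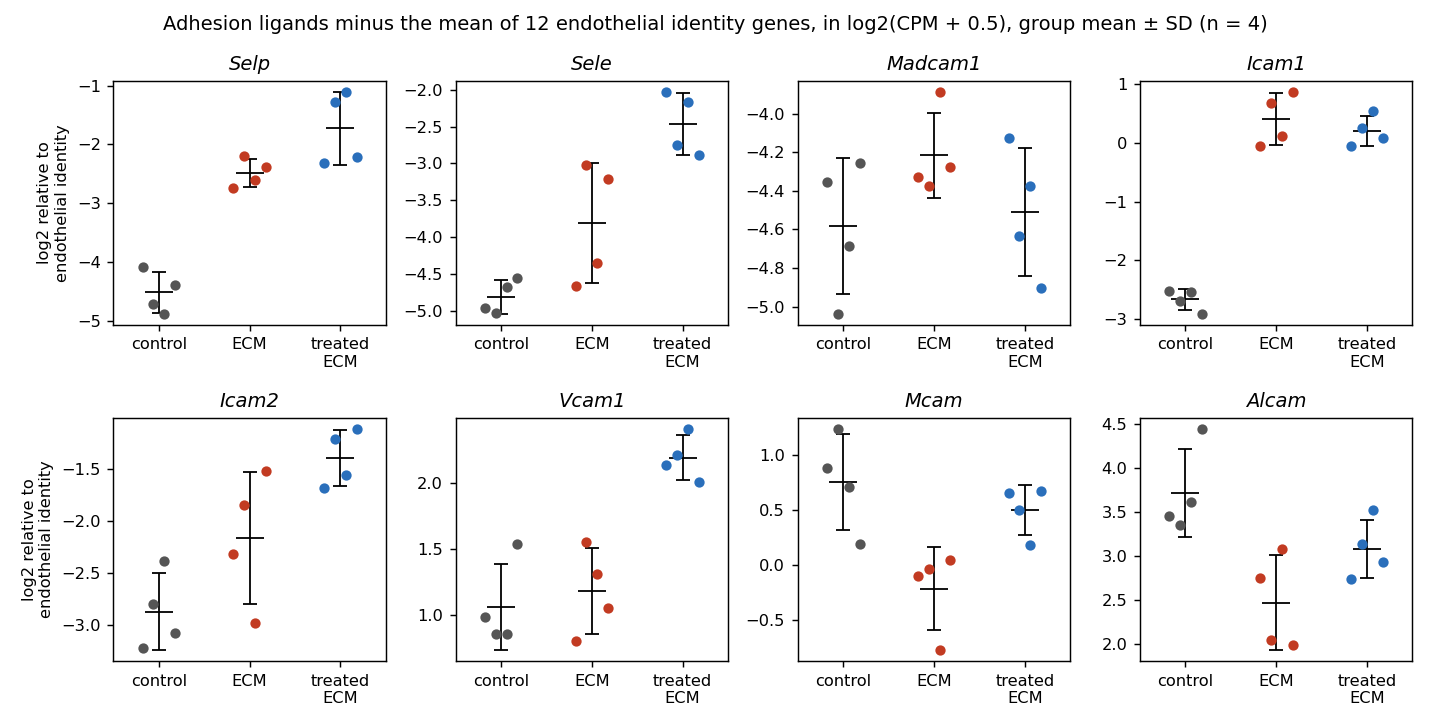
Level of each adhesion ligand gene minus the mean of 12 endothelial identity genes in the same library, in log2(CPM + 0.5), with dots for libraries and bars for the group mean ± SD. Icam1 and Selp lay above control in every ECM and treated library, and Vcam1, Sele and Icam2 in the treated libraries. The added 0.5 CPM understates changes of genes as low as Sele and Selp. Mcam and Alcam lay below control in every ECM library.

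Marker genes of other cell types were summed in the same libraries. Platelet genes, which bear on Selp, summed to 3.77 to 6.35 CPM in control, 4.89 to 7.27 in ECM and 3.98 to 5.28 in treated ECM. Of 7 platelet genes 4 were tested, with a smallest edgeR adjusted p over the 3 comparisons of 0.365 (Gp5), and Gp1bb was at 0 in control and ECM. Summed T and NK cell genes were at 0.0533 to 0.741 CPM in control, 28.2 to 54.0 in ECM and 4.75 to 14.8 in treated ECM, with 7 of 7 tested genes higher in ECM, 6 lower in treated ECM than in ECM, 6 still above control (5 without the 3 libraries) and Cd3g and Ncr1 at 0 in control. Monocyte and macrophage genes summed to 24.2 to 59.9, 131 to 282 and 37.1 to 51.3 CPM. Of 6 tested genes 5 were higher in ECM, 5 lower in treated ECM than in ECM and 5 still above control in treated ECM. Vcan, which was not called in any comparison, was at 37.6 CPM in control, where the mean sum was 38.7 CPM. The sums therefore hide the difference between treated ECM and control in the other genes. Neutrophil genes summed to 0.203 to 0.363 CPM in control, 2.51 to 6.39 in ECM and 2.39 to 4.06 in treated ECM. Of 7 neutrophil genes 2 had enough reads to be tested. These 2 were higher in each disease group than in control, and 0 were called between the disease groups. Choroid plexus genes ranged widely within groups, from 62.0 to 611 CPM in control, 11.5 to 385 in ECM and 72.2 to 862 in treated ECM. The median log2 fold change of the 6 choroid plexus genes was -1.22 in ECM against control, and they did not pass the edgeR test. Astrocyte genes summed to 4060.1 to 5611 CPM in control, 4394 to 5634 in ECM and 3405 to 4198 in treated ECM. Of 6 astrocyte genes Gfap (log2 fold change 2.10 ± 0.24) and Aldh1l1 (1.17 ± 0.19) rose in ECM, and both fell in treated ECM against ECM (-1.30 ± 0.23 and -0.71 ± 0.19). Without the 3 libraries 2 were higher and 1 lower in ECM, and 1 higher and 2 lower in treated ECM against ECM. Pericyte and mural genes, which bear on Mcam, summed to 235 to 265 CPM in control, 205 to 275 in ECM and 237 to 251 in treated ECM. Of 8 of them Kcnj8 alone was called, higher in ECM (1.32 ± 0.23) and lower in treated ECM against ECM (-0.85 ± 0.23), while without the 3 libraries 1 was higher and 1 lower in ECM and the difference of Kcnj8 between the disease groups did not pass. Microglia genes summed to 332 to 352, 256 to 374 and 279 to 393 CPM in the same order of groups. Of 7 microglia genes Sall1 alone was called, lower in ECM than in control (log2 fold change -1.215 ± 0.31), and the sums do not show this. Without the 3 libraries 1 was higher and 1 lower in ECM, and 1 was lower in treated ECM against ECM. Erythroid genes, here globin genes and Alas2, summed to 11.04 to 45.1 CPM in control, 0 to 0.759 in ECM and 13.6 to 81.9 in treated ECM. Of these genes 3 of 4 tested were lower in ECM, and Hbb-bt was at 0 there. Their mRNA does not measure the number of red cells in the tissue. Neuron genes, which bear on Alcam, summed to 5480 to 8462 CPM in control, 6881 to 8169 in ECM and 5853 to 7270 in treated ECM. Of 6 neuron genes 0 were called in each comparison. The part of leukocytes, neurons, glia, mural cells, choroid plexus and blood content in the ligand results was not tested.

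The leukocyte receptors of these ligands were read from the same fit. Of 13 counter-receptor genes 9 rose and 0 fell in ECM, with a median log2 fold change of 2.24. Without control 4, ECM 2 and ECM 3, 10 rose in ECM, 7 fell in treated ECM against ECM and 6 were higher in treated ECM than in control. Itgal, the alpha chain of LFA-1 and so the partner of Icam1 and Icam2, was at 1.02 ± 0.749 CPM in control and 19.3 ± 1.09 CPM in ECM (SD, n = 4), an 18.3-fold rise (edgeR adjusted p = 3.12e-05). Itgax and Spn rose 22.4-fold and 34.6-fold. In treated ECM against ECM 5 of 13 fell and 0 rose, among them Spn (log2 fold change -1.67 ± 0.27, adjusted p = 0.00298) and Cd44 (-1.46 ± 0.28, adjusted p = 0.00711). Against control 5 of 13 were still higher in treated ECM, and Itgal was 8.91-fold higher there.

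Among 18 tested genes of cytokine input and NF-kB signalling, which include cytokines, their receptors, transcription factors and NF-kB inhibitors, 14 rose and 0 fell in ECM, with a median log2 fold change of 1.56. Ifng and Tnf had 0 reads in all controls and were at least 55.4-fold and 31.5-fold higher in ECM, as bounds against 3 reads over the control group. The transcription factor gene Irf1 rose from 3.92 ± 0.772 to 31.9 ± 1.57 CPM and was at 34.4 ± 7.15 CPM in treated ECM, 8.75-fold above control. In treated ECM against ECM 4 of 18 fell and 0 rose (7 and 1 without control 4, ECM 2 and ECM 3). Among them were the NF-kB inhibitors Tnfaip3 (log2 fold change -0.99 ± 0.21) and Nfkbia (-0.62 ± 0.17), and Ifngr1 (-0.90 ± 0.16). Against control 6 of 18 remained called higher in treated ECM, including Il1b at 15.3-fold.

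Of 15 other adhesion and transmigration molecules tested, 4 rose and 1 fell in ECM (6 and 1 without control 4, ECM 2 and ECM 3). Pecam1, a junctional molecule used in transmigration, rose 2.83-fold, Vwf, the platelet-binding factor stored beside P-selectin, rose 2.13-fold, and L1cam, a mostly neuronal molecule, fell by 0.87 on the log2 scale. In treated ECM against ECM 2 rose, L1cam and Jam3, and 2 fell, Pecam1 and Emcn (3 and 3 without the 3 libraries), and against control Podxl alone was higher (1.85-fold, adjusted p = 0.00962). Pecam1, Emcn and Esam also belong to the endothelial identity genes. Of 8 cytoskeletal linkers and sheddases, Msn and Ezr, which anchor ICAM-1 and VCAM-1 to actin, rose 2.89-fold and 2.02-fold in ECM, and 0 of the 8 fell (3 rose and 2 fell without control 4, ECM 2 and ECM 3). Msn fell in treated ECM against ECM, alone of the 8 (2 fell without the 3 libraries). Among 7 tested genes for selectin ligand synthesis, B4galt1 was the 1 that passed, 3.22-fold higher in ECM and 2.24-fold lower in treated ECM than in ECM. Without control 4, ECM 2 and ECM 3, 2 of the 7 were higher in ECM and 2 lower in treated ECM than in ECM.

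Genes whose level followed a ligand most closely over all 12 libraries were listed as a description, since the libraries share their group and depth. For Icam1 they were H2-Q6 (Pearson r = 0.994), Ch25h (0.991) and H2-Q4 (0.99), for Selp Cd74 (0.971), Ubd (0.97) and Gbp10 (0.968). For Vcam1 they were the E-selectin gene Sele (0.926), Tnfsf10 (0.92) and H2-Eb1 (0.915). H2 genes have near-identical copies that can share reads.

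The authors' deposited tables hold no gene with an absolute log2 fold change below 1 or an unadjusted p above 0.05, so absence from them does not show that a gene did not differ. In the authors' deposited table of ECM against control, the log2 fold change was 4.04 for Icam1, 4.33 for Selp, 5.44 for Sele, 1.66 for Icam2 and 2.42 for Madcam1. The authors' deposited table of treated ECM against ECM holds Madcam1 alone of the members, at -1.40 with an adjusted p of 0.123. In the authors' deposited table of treated ECM against control the values were 3.38 for Icam1, 4.80 for Selp, 6.43 for Sele, 1.99 for Icam2 and 1.34 for Vcam1. Gene models on the opposite strand overlap Icam1 (Gm47079), Vcam1 (Gm43109), Selp (Gm16587 and Gm16548) and Mcam (Gm10687), and the labels do not state strand-specific counting, so reads of these could be part of the counts.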

How the data were processed

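Brain RNA was prepared with Trizol and sequenced from NEBNext Ultra libraries, per the labels' protocols. Trimmomatic, FastQC, STAR and HTSeq and build mm10 are named in the submitters' processing notes, without versions. The authors deposited unscaled read counts per gene. The authors' deposited comparison tables also hold a log2 fold change, p-values, a normalized signal and FPKM, per the file headers, and the signal and FPKM were not used. In 2212 genes, all with a name of at least 8 characters, values sat in the wrong column. They were put back and fitted without treated library 4, whose values differed from the authors' tables. This touches no member. Of the names 49 were unusable. Counts went through filterByExpr and TMM scaling and were fitted with a mean per group (edgeR 4.0.16, R 4.3.3). P-values were Benjamini-Hochberg adjusted over 14603 genes. Alternatives included DESeq2 1.42.0. Exons came from GENCODE M21. The fit was tested on simulated data. Depth is 13342177 to 18886822 reads per library, and intervals of read ratios cover counting error only, while bounds from an SE include the spread between libraries. Members and lists were chosen with earlier results of these data known. Genes named are the members, up to 4 called genes per list and comparison with the largest change, and the 3 most correlated with Icam1, Vcam1 and Selp. Some genes of this rule are left out of the text.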

Additional observations from a re-analysis of the deposited data

Results flagged for a closer look

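Alcam in control 4 was at 291 CPM, far above the 167 to 179 CPM of the other 3 control libraries, and its gap to the nearest of them was 0.899 of the range of the group. Of 24 combinations of gene and group screened this was the 1 that exceeded the 95% limit of Dixon's test for a sample far from the others, which chance alone exceeds in about 1 in 20 groups. Control 4 also had the lowest Mcam level of its group, 14.8 CPM. Alcam in ECM against control had a log2 fold change of -0.62 with all libraries and of -0.39 without control 4 alone (edgeR adjusted p = 0.317). Without ECM 3 alone it was -0.82 (adjusted p = 0.0538). Without control 4 and the 2 ECM libraries with high mitochondrial shares it was -0.53 (adjusted p = 0.108).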

How the results depend on the processing

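In the edgeR fit Selp, Sele and Icam1 kept their direction and call against control in both disease groups under every alternative that could be fitted. Sele had too few reads for the fit of control and ECM alone. That fit called 868 genes and 2 members in ECM against control, in place of 1487 and 5. Without control 4, ECM 2 and ECM 3 together it was 2728 genes, with 2239 in place of 1258 for treated ECM against ECM (1 member, Vcam1) and 465 in place of 296 for treated ECM against control. DESeq2 called 2134 and 460 genes in the last 2 comparisons. Leaving out 1 library gave 3 to 6 members and 1060 to 1689 genes in ECM against control, 0 to 1 members and 547 to 2107 genes in treated ECM against ECM, and 4 to 5 members and 227 to 325 genes in treated ECM against control. The replicate numbers did not pair the libraries (same-numbered libraries correlated between -0.613 and 0.3, over 0.1 in 1 of 4 pairs for each 2 groups, and 1 of 8 libraries correlated best with its own number). With them as a replicate block, treated ECM against ECM gave 552 genes and Vcam1 in ECM against control an adjusted p of 0.0505. Of the 24 comparisons relative to endothelial genes 14 passed with a pseudocount of 0.1 CPM, in place of 0. Signs turned for Mcam in treated ECM against control (0.15 without control 2, 0.05 without treated 3, within a range of -0.28 to 0.15 over all omissions of 1 library) and for Selp minus Sele in the same comparison (-0.00899 with a pseudocount of 0.1 CPM), none of which had passed. The cause of these changes was not tested. Depth limits Madcam1, with 9 to 43 reads per group, and the control levels of Sele and Selp, with 2 and 12 reads.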
